A study of Mus musculus with 9 samples.

Results

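The genes examined here encode protein tyrosine phosphatases and dual-specificity phosphatases, chosen by a platform symbol that begins with Ptpn, Ptpr or Dusp and is the single symbol of a row. The set holds 61 of the 19938 genes with a single platform symbol. They comprised 16 non-receptor protein tyrosine phosphatases, 20 receptor-type protein tyrosine phosphatases, 10 MAP kinase phosphatases and 14 atypical dual-specificity phosphatases. The remaining member was Ptprcap, which carries the prefix but encodes a CD45-associated protein that is not a phosphatase.

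RNA had been measured on 9 whole-transcript arrays (Affymetrix Mouse Gene 1.0 ST). The RNA came from intraepithelial lymphocytes of the small intestine of NOD-SCID mice aged 8 to 10 weeks, a strain background that lacks mature T and B cells. Cells were CD3- CD45+ and were sorted to over 98% purity as Ly49E+CD8aa+, Ly49E+CD8aa- or Ly49E-CD8aa+ cells, with 3 arrays each. Klra5 encodes Ly49E, one of the Ly49 receptors of natural killer cells, and CD8aa is the homodimer of CD8 alpha. The cells were thus those a host without adaptive lymphocytes retains. How many mice were behind an array is not known here, so the p-values measure the spread between these samples.

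Tyrosine kinases and MAP kinases pass on the signals of activating receptors, and phosphatases remove the phosphates they add. CD45, encoded by Ptprc, removes an inhibitory phosphate from Src-family kinases, and the SH2-domain phosphatase SHP-1, encoded by Ptpn6, is recruited to the phosphorylated tails of inhibitory receptors, among them those of Ly49 receptors. The MAP kinase phosphatases act on ERK, JNK and p38. Several of them are themselves transcribed in response to ERK activity, which makes them part of a negative feedback, and a small group of tyrosine phosphatases with a kinase interaction motif, including those encoded by Ptpn5 and Ptpn7, also binds MAP kinases.

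Dusp1, Dusp2 and Dusp5 encode inducible nuclear MAP kinase phosphatases whose values were higher on all Ly49E+CD8aa- arrays than on all Ly49E-CD8aa+ arrays. The 250 bases before the RefSeq start of each gene (GRCm38.p6) are shown 5′ to 3′ on the gene's own strand. The Dusp1 and Dusp5 windows carry different sets of letters known from signal-responsive promoters, and the Dusp2 window carries none of those searched. The Dusp1 window is chr17:26508473-26508722 on the minus strand, the Dusp2 window chr2:127335909-127336158 on the plus strand and the Dusp5 window chr19:53528895-53529144 on the plus strand. Capitals mark matches to the cyclic AMP response element (CRE) TGACGTCA, to its core TGACG, to the AP-1 site TGANTCA and to the CArG box, each searched on both strands.
Dusp1: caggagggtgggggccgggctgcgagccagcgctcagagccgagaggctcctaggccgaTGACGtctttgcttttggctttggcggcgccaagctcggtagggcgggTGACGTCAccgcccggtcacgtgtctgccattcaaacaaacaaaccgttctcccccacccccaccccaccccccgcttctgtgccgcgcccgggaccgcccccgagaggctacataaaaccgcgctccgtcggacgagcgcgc
Dusp2: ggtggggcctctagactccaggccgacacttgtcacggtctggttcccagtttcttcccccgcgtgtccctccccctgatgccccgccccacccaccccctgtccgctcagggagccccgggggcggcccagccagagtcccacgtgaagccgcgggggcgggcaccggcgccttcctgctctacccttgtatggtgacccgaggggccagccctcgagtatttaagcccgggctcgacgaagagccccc
Dusp5: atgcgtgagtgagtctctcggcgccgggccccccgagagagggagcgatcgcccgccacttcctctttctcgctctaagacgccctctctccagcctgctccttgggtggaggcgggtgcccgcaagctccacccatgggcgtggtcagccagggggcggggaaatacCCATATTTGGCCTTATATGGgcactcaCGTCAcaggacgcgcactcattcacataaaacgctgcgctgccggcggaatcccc
The Dusp1 window held 1 full CRE and 3 matches to the core, of which 2 lie within the full CRE. The Dusp5 window held 2 adjacent CArG boxes, the sequence bound by serum response factor, and 1 core. The Dusp2 window held none of these letters, and no window was used here for Dusp4. Of the other genes called below in a comparison or by the F test, Ptpn7 had 2 cores in 1 of its windows. The windows of Ptpn5, Ptpn6, Ptprj, Dusp3 and Dusp7 held none of these letters. Among 32851 windows of the same length, 1.55% held a full CRE, 17.8% a core, 6.75% an AP-1 site and 1.47% a CArG box. Windows were matched for 48 of the 61 genes, 64 windows in all, of which 4 held a full CRE, 21 a core, 3 an AP-1 site and 3 a CArG box. A match describes the letters and does not show that a factor binds there.

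Values are log2 expression values from robust multi-array averaging (RMA), so a difference of 1 is a doubling of signal. Klra5 matched the sort, at 11.31 to 11.51 on the 3 Ly49E+CD8aa+ arrays and 11.38 to 11.50 on the 3 Ly49E+CD8aa- arrays, against 5.48 to 7.31 on the 3 Ly49E-CD8aa+ arrays. Cd8a was lower in Ly49E+CD8aa- cells, at 11.25 to 11.50, against 12.51 to 12.64 in Ly49E-CD8aa+ cells. In the population sorted as CD8aa- it thus stayed far above the array medians of 5.76 to 5.82. Cd8b1, encoding CD8 beta, was 3.04 higher in Ly49E+CD8aa- relative to Ly49E-CD8aa+ cells (SE 0.111, limma adjusted p = 1.13e-06). Cd3e was read at 10.35 to 11.79 on all 9 arrays although the cells had been gated as CD3-. Markers of both lymphocyte lists separated Ly49E+CD8aa- cells from the others in both directions. Of the 11 T lineage markers, 3 were higher (Thy1 by 3.89, Cd8b1 and Cd28 by 2.36) and 2 lower (Cd8a and Cd3e) in Ly49E+CD8aa- cells, set against Ly49E-CD8aa+ cells. Of the 13 measured NK and innate lymphoid markers, 5 were higher in the same comparison, among them Ncr1 by 5.29, Klrk1 by 5.20, Il7r by 3.92 and Eomes by 2.57, and 2 were lower (Prf1 and Il2rb). The higher and lower markers counted above had a limma adjusted p under 0.05 (background 1.35% of all genes higher and 0.802% lower). The values of 12 of these 13 did not overlap between Ly49E+CD8aa- arrays and those of either other population. Over all genes the arrays did not overlap for 12.9% against Ly49E+CD8aa+ cells and 12.7% against Ly49E-CD8aa+ cells. Sums over a list follow its brightest genes. The summed linear signal of the 11 T lineage markers was 13945 to 15986 in Ly49E+CD8aa- cells, below the 18271 to 19224 of Ly49E+CD8aa+ cells and the 18344 to 18678 of Ly49E-CD8aa+ cells. That list holds Cd8a, whose product was sorted on, so this sum is not independent of the sort. Cd8a averaged 11.42 in Ly49E+CD8aa- cells, against 12.55 in Ly49E+CD8aa+ and 12.58 in Ly49E-CD8aa+ cells. The sum of 9 macrophage markers was also lowest in Ly49E+CD8aa- cells (428 to 432, against 493 to 512 in Ly49E+CD8aa+ and 468 to 628 in Ly49E-CD8aa+ cells), as was that of 10 stromal and endothelial markers (1111 to 1211, against 1312 to 1545 and 1297 to 1404), with 0 members of either list called. The macrophage sum followed Cd68, which averaged 6.72 in Ly49E+CD8aa- cells, against 7.50 in Ly49E+CD8aa+ and 7.64 in Ly49E-CD8aa+ cells. The median difference of the macrophage list was 0.001 for Ly49E+CD8aa+ minus Ly49E+CD8aa- and -0.054 for Ly49E+CD8aa- minus Ly49E-CD8aa+ cells. The sum of the NK and innate lymphoid markers, by contrast, overlapped among the populations (30053 to 31061 in Ly49E+CD8aa+, 30079 to 31218 in Ly49E+CD8aa- and 29489 to 31826 in Ly49E-CD8aa+ cells). The sum of the 13 enterocyte markers was 10799 to 11408 on replicate 1 of the 3 populations and 6346 to 8218 on the other 6 arrays. The part of these shifts in the phosphatase results was not tested. In bulk RNA, fewer cells of a type and less RNA per cell cannot be told apart.

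The phosphatase genes that separated the populations did so mainly between Ly49E+CD8aa- cells and the others. Ptpn7 and the nuclear MAP kinase phosphatase gene Dusp4 were higher in Ly49E+CD8aa- cells and Ptpn5 was lower there, set against either other population. Dusp1, Dusp3 and Dusp5 were higher and Ptpn6 was lower in Ly49E+CD8aa- cells, set against Ly49E-CD8aa+ cells. Ptpn6 was not particular to Ly49E+CD8aa- cells, as it averaged 10.26 there, 10.25 in Ly49E+CD8aa+ and 10.81 in Ly49E-CD8aa+ cells. A gene was called when its limma p, adjusted by Benjamini-Hochberg over all 19938 genes, was under 0.05. Between Ly49E+CD8aa- and Ly49E-CD8aa+ cells 7 of 61 genes were called, against a background of 2.15% of all genes. Of these, 5 were higher in Ly49E+CD8aa- cells (background 1.35%), namely Dusp4, Ptpn7, Dusp1, Dusp3 and Dusp5. The other 2, Ptpn5 and Ptpn6, were lower (background 0.802%). With any 1 of the 9 arrays left out, 3 to 5 genes were called in this comparison. Between Ly49E+CD8aa+ and Ly49E+CD8aa- cells 4 genes were called (background 1.7%), with Ptpn5 and Ptprj higher (background 0.476%) and Ptpn7 and Dusp4 lower (background 1.22%) in Ly49E+CD8aa+ cells. Between Ly49E+CD8aa+ and Ly49E-CD8aa+ cells limma called 0 genes (background 0.13%, made up of 0.0201% higher and 0.11% lower), while 5 had an unadjusted p under 0.05 (background 4.18%). The 3 comparisons share arrays and are not independent.

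Counts of genes whose arrays did not overlap were taken from the same 9 arrays and are not separate support. They were lowest between Ly49E+CD8aa+ and Ly49E-CD8aa+ cells, as were the calls. The values of 19 of the 61 genes did not overlap between Ly49E+CD8aa- and Ly49E-CD8aa+ arrays (background 12.7%), 6 of them higher and 13 lower in Ly49E+CD8aa- cells. For Ly49E+CD8aa+ against Ly49E+CD8aa- cells the count was 18 (background 12.9%), and for Ly49E+CD8aa+ against Ly49E-CD8aa+ cells it was 7 (background 6.25%). The median difference over the 61 genes stayed near that of all genes, at -0.039 against -0.024 for Ly49E+CD8aa- minus Ly49E-CD8aa+ cells. It was 0.011 against 0.025 for Ly49E+CD8aa+ minus Ly49E+CD8aa- cells and 0.011 against 0 for Ly49E+CD8aa+ minus Ly49E-CD8aa+ cells. Called members lay on both sides of these medians. A moderated F test over the 3 populations called 5 genes (background 2.03%), namely Ptpn5, Ptpn7, Dusp4, Dusp7 and Ptprj. No filter on low values was applied, so all 61 were tested. Of these, 9 lay below the 25th percentile of genes on all 9 arrays (Ptpn13, Ptpn20, Ptprd, Ptprg, Ptpro, Ptprz1, Dusp15, Dusp21 and Dusp27), and none of these 9 was called.

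**Figure D1:**
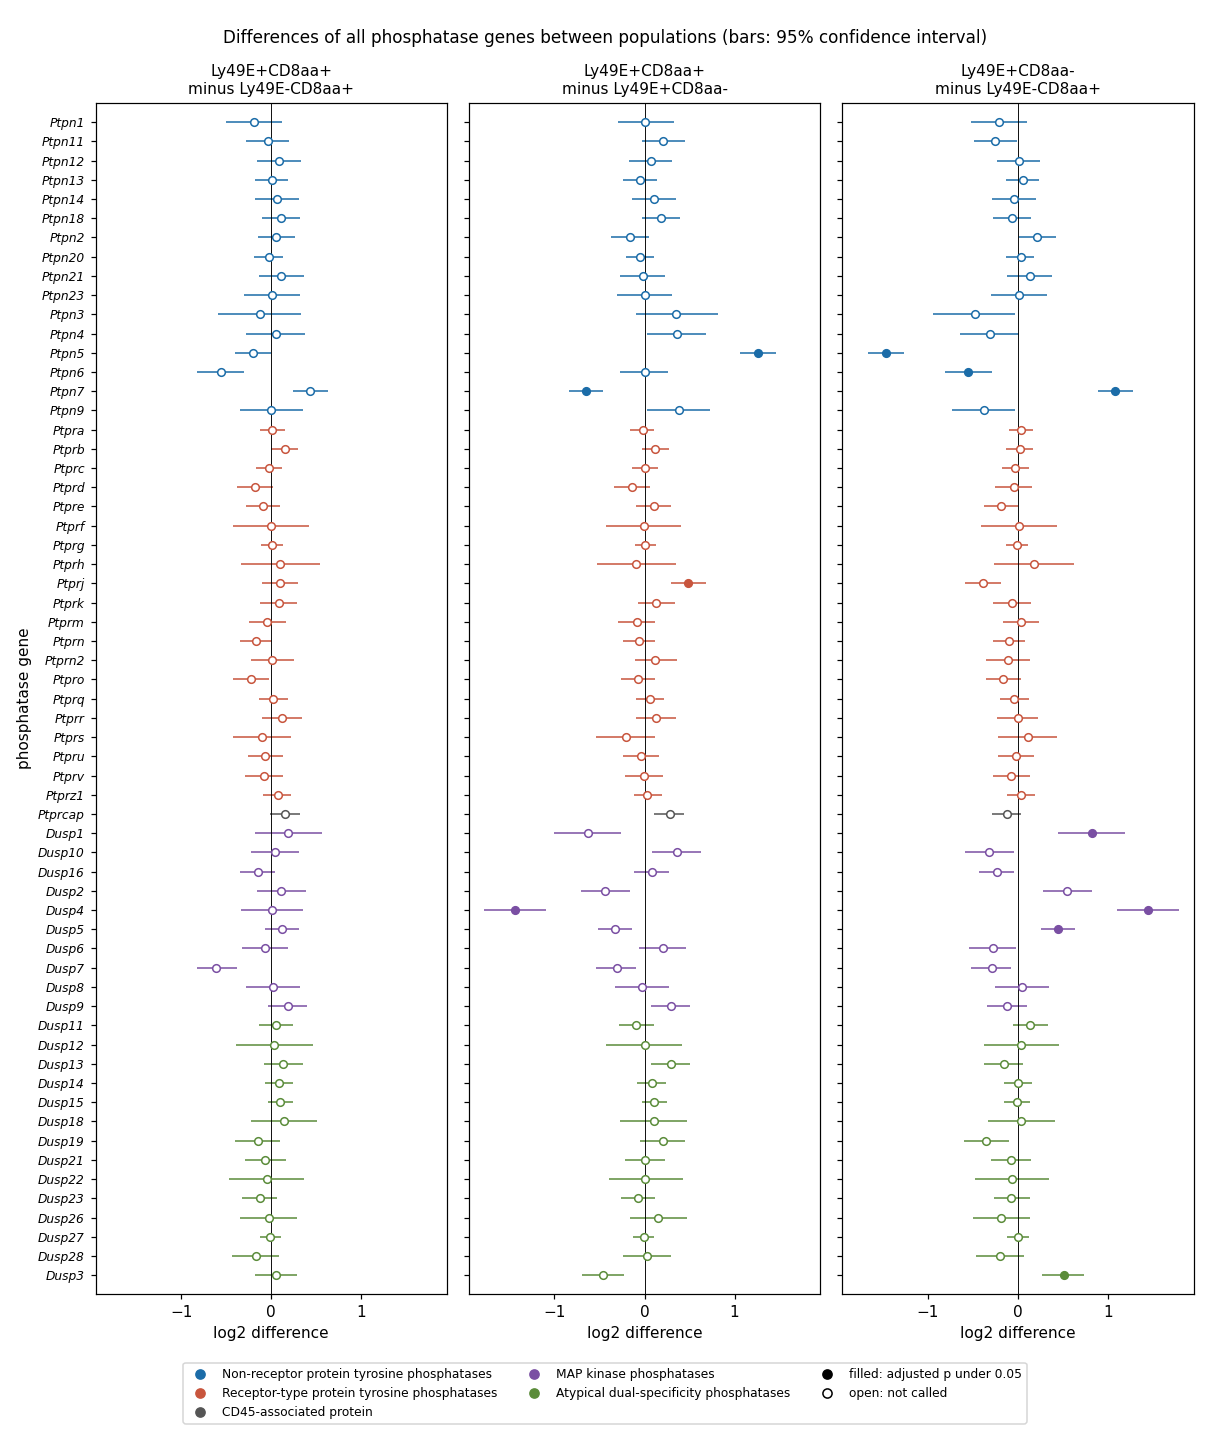
Log2 difference (x axis) of each of the 61 genes (rows, by class) in the 3 comparisons, with 95% confidence intervals from limma. Filled points passed an adjusted p of 0.05: none for Ly49E+CD8aa+ minus Ly49E-CD8aa+, 4 for Ly49E+CD8aa+ minus Ly49E+CD8aa- and 7 for Ly49E+CD8aa- minus Ly49E-CD8aa+.

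Among the tyrosine phosphatases with a kinase interaction motif, Ptpn5 and Ptpn7 changed in opposite directions. Ptpn5 encodes STEP, which is best known from neurons, where it acts on ERK, p38 and Fyn. Its values were 9.67, 9.44 and 9.44 on the Ly49E+CD8aa+ arrays, 8.39, 8.16 and 8.23 on the Ly49E+CD8aa- arrays and 9.79, 9.66 and 9.71 on the Ly49E-CD8aa+ arrays. All 3 Ly49E+CD8aa- arrays lay below the other 6. The difference was 1.26 for Ly49E+CD8aa+ minus Ly49E+CD8aa- cells (95% CI 1.06 to 1.46, 2.39-fold, adjusted p = 7.3e-05 by limma) and -1.46 for Ly49E+CD8aa- minus Ly49E-CD8aa+ cells (95% CI -1.66 to -1.26, 2.75-fold lower, adjusted p = 2.71e-05). The CD8aa+ populations differed by -0.20 (SE 0.0882, adjusted p = 1).

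Ptpn7 encodes HePTP, a phosphatase of haematopoietic cells that acts on ERK and p38. It was read at 7.58, 7.58 and 7.40 in Ly49E+CD8aa+ cells, 8.10, 8.24 and 8.18 in Ly49E+CD8aa- cells and 6.95, 7.12 and 7.20 in Ly49E-CD8aa+ cells. The 3 populations did not overlap, with Ly49E+CD8aa- cells highest and Ly49E-CD8aa+ cells lowest. The difference was -0.65 for Ly49E+CD8aa+ minus Ly49E+CD8aa- cells (1.57-fold lower, adjusted p = 0.00441) and 1.08 for Ly49E+CD8aa- minus Ly49E-CD8aa+ cells (2.12-fold, adjusted p = 0.000156). For Ly49E+CD8aa+ minus Ly49E-CD8aa+ cells the value of 0.43 (95% CI 0.24 to 0.63) had an adjusted p of 0.254. Ptprr, the receptor-type gene of this group, named after its values were seen, averaged 5.14, 5.02 and 5.02 and was not called.

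**Figure D2:**
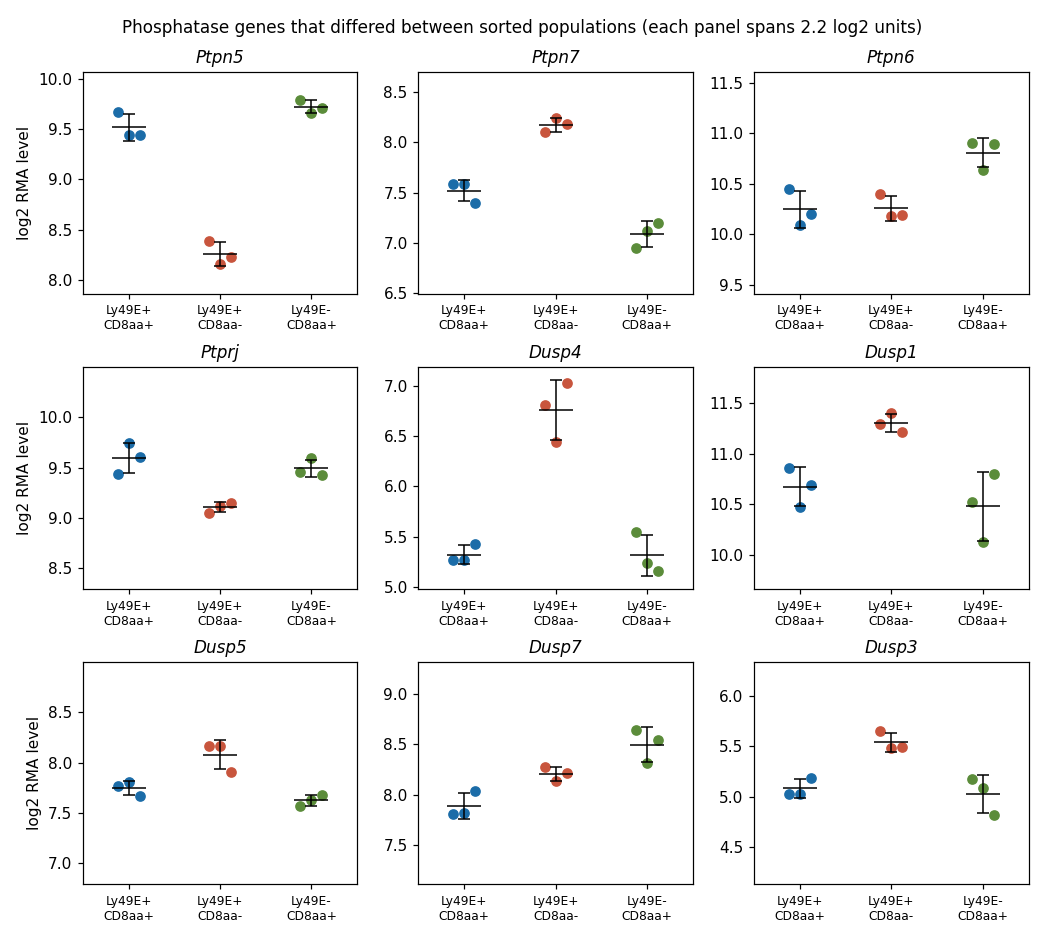
Log2 values (y axis) of the 9 genes called in a comparison or by the F test, on each array (points) of the 3 populations (x axis), with means and SDs (bars). Each panel spans the same number of log2 units. Ptpn5 was lowest and Dusp4 and Ptpn7 were highest on the 3 Ly49E+CD8aa- arrays, Ptpn6 was highest on the Ly49E-CD8aa+ arrays, and Dusp7 was lowest on the Ly49E+CD8aa+ arrays.

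The 4 inducible nuclear MAP kinase phosphatases (Dusp1, Dusp2, Dusp4 and Dusp5) had their highest values on the Ly49E+CD8aa- arrays, and the values of all 4 did not overlap with either other population. Dusp1, Dusp4 and Dusp5 passed the test against Ly49E-CD8aa+ cells and Dusp4 alone passed against Ly49E+CD8aa+ cells, while Dusp2 passed in neither. The grouping was made after the values were seen. Dusp4, whose product acts on ERK and JNK, stood at 5.27, 5.27 and 5.43 in Ly49E+CD8aa+ cells, 6.81, 6.44 and 7.03 in Ly49E+CD8aa- cells and 5.55, 5.24 and 5.16 in Ly49E-CD8aa+ cells. It differed by -1.44 for Ly49E+CD8aa+ minus Ly49E+CD8aa- cells (95% CI -1.78 to -1.09, 2.71-fold lower, adjusted p = 0.00127) and by 1.45 for Ly49E+CD8aa- minus Ly49E-CD8aa+ cells (95% CI 1.10 to 1.79, 2.73-fold, adjusted p = 0.000979). The CD8aa+ populations were 0.01 apart, with all their values below the array medians of 5.76 to 5.82.

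Dusp1, which encodes MKP-1, was read at 10.86, 10.47 and 10.69 in Ly49E+CD8aa+ cells, 11.30, 11.40 and 11.22 in Ly49E+CD8aa- cells and 10.52, 10.12 and 10.80 in Ly49E-CD8aa+ cells. The Ly49E+CD8aa- arrays were the 3 highest of the 9. Its difference was 0.82 for Ly49E+CD8aa- minus Ly49E-CD8aa+ cells (95% CI 0.45 to 1.19, 1.77-fold, adjusted p = 0.0359) and -0.63 for Ly49E+CD8aa+ minus Ly49E+CD8aa- cells (adjusted p = 0.135). The call was lost without any 1 of 7 arrays, at adjusted p of 0.0544 to 0.139, and was kept without Ly49E+CD8aa+ replicate 2 or Ly49E-CD8aa+ replicate 3.

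Dusp5 encodes a nuclear phosphatase selective for ERK. It had 7.77, 7.81 and 7.67 in Ly49E+CD8aa+ cells, 8.16, 8.16 and 7.91 in Ly49E+CD8aa- cells and 7.57, 7.63 and 7.68 in Ly49E-CD8aa+ cells. The difference of 0.45 for Ly49E+CD8aa- minus Ly49E-CD8aa+ cells (1.37-fold) had an adjusted p of 0.0271. That of -0.33 for Ly49E+CD8aa+ minus Ly49E+CD8aa- cells did not pass (adjusted p = 0.131). Leaving out Ly49E+CD8aa+ replicate 1 ended the call, as did leaving out replicate 1 or 2 of Ly49E+CD8aa- or any 1 Ly49E-CD8aa+ array (adjusted p = 0.0519 to 0.109).

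Dusp2 encodes an ERK- and p38-directed phosphatase of activated lymphocytes and followed the same order without a call. Its values were 6.73, 6.59 and 6.73 in Ly49E+CD8aa+ cells, 7.31, 6.83 and 7.22 in Ly49E+CD8aa- cells and 6.67, 6.46 and 6.59 in Ly49E-CD8aa+ cells. The 3 Ly49E+CD8aa- arrays were above the other 6, with replicate 2 nearest to them. The difference for Ly49E+CD8aa- minus Ly49E-CD8aa+ cells was 0.55 (95% CI 0.28 to 0.82, adjusted p = 0.0602). Without Ly49E+CD8aa- replicate 2 the adjusted p was 0.00666, while without any other 1 array Dusp2 stayed uncalled (adjusted p up to 0.206).

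Of the 22 ERK feedback and immediate early genes, all measured, 2 were called in each comparison with Ly49E+CD8aa- cells (background 2.15% of all genes against Ly49E-CD8aa+ cells and 1.7% against Ly49E+CD8aa+ cells). Their summed linear signal was 5927 to 7462 in Ly49E+CD8aa+ cells, 8350 to 9376 in Ly49E+CD8aa- cells and 6142 to 6855 in Ly49E-CD8aa+ cells. Ly49E+CD8aa- arrays lay above all others. Called members were Nr4a1, an orphan nuclear receptor induced by receptor signalling, and Jun, an AP-1 subunit, which were 2.08 (adjusted p = 0.000193) and 0.55 (adjusted p = 0.00796) higher in Ly49E+CD8aa- relative to Ly49E-CD8aa+ cells. In Ly49E+CD8aa+ minus Ly49E+CD8aa- cells Nr4a1 differed by -2.29 (adjusted p = 0.000109) and Fosb, another AP-1 subunit, by -1.45 (adjusted p = 0.033). The other 19 genes of the list did not pass in either comparison, and the list medians were 0.088 and -0.094. Between the CD8aa+ populations limma called 0 of 22 (background 0.13%), with 1 at an unadjusted p under 0.05 (background 4.18%). The part of these genes in the phosphatase values was not tested.

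**Figure D3:**
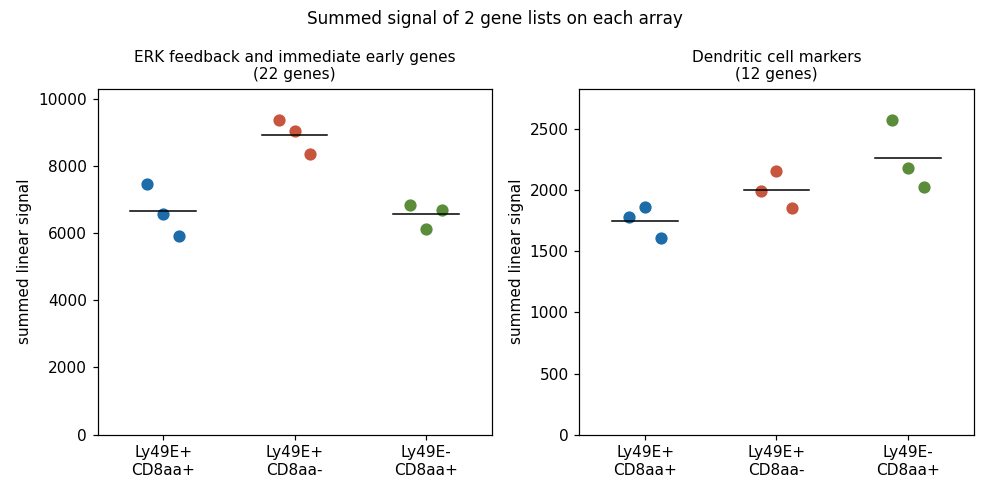
Summed linear signal (y axis) of the 22 ERK feedback and immediate early genes (left) and of the 12 dendritic cell markers (right) on each array (points) of the 3 populations (x axis), with the mean as a line. The first sum was 8350 to 9376 on the Ly49E+CD8aa- arrays, above the other 6 arrays, while the second reached 2575 in Ly49E-CD8aa+ cells and overlapped between neighbouring populations.

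Of the 6 other MAP kinase phosphatases none was called in a pairwise comparison. Dusp8, read at 5.65 to 6.17 over the 9 arrays, and Dusp9, at 6.14 to 6.71, are named after their values were seen. Dusp7, a cytoplasmic ERK phosphatase, had 7.81, 7.82 and 8.04 in Ly49E+CD8aa+ cells, 8.27, 8.13 and 8.21 in Ly49E+CD8aa- cells and 8.64, 8.31 and 8.54 in Ly49E-CD8aa+ cells. The 3 populations did not overlap, with Ly49E+CD8aa+ lowest and Ly49E-CD8aa+ highest. The F test passed (adjusted p = 0.0344), whereas no pair did. The largest of the pairwise differences, -0.61 for Ly49E+CD8aa+ minus Ly49E-CD8aa+ cells (95% CI -0.83 to -0.38), had an adjusted p of 0.0981. The F call was lost without any 1 of 7 arrays (adjusted p = 0.0699 to 0.134) and was kept without Ly49E+CD8aa+ replicate 3 or Ly49E-CD8aa+ replicate 2. Without the last of these the pairwise adjusted p was 0.0483, while without any other 1 array that pair did not pass (adjusted p up to 0.416).

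Dusp6, the other cytoplasmic ERK phosphatase among the named genes and itself a target of ERK signalling, had 9.89, 9.69 and 9.61 in Ly49E+CD8aa+ cells, 9.67, 9.62 and 9.28 in Ly49E+CD8aa- cells and 9.89, 9.74 and 9.78 in Ly49E-CD8aa+ cells. The difference for Ly49E+CD8aa- minus Ly49E-CD8aa+ cells was -0.28 (adjusted p = 0.437), opposite in sign to those of Dusp1, Dusp2, Dusp4 and Dusp5. Dusp10, which acts on JNK and p38, had 9.64, 9.51 and 10.02 in Ly49E+CD8aa+ cells, 9.36, 9.46 and 9.28 in Ly49E+CD8aa- cells and 9.72, 9.69 and 9.64 in Ly49E-CD8aa+ cells. Its Ly49E+CD8aa- arrays were the 3 lowest, but the differences of 0.36 and -0.32 did not pass (adjusted p = 0.322 and 0.379). Dusp16, also directed at JNK and p38, differed by -0.23 for Ly49E+CD8aa- minus Ly49E-CD8aa+ cells (adjusted p = 0.363).

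Of the 14 atypical dual-specificity phosphatases, which lack the MAP kinase docking domain, Dusp3 alone was called. Dusp3 encodes VHR, which can act on ERK and JNK. It was read at 5.03, 5.03 and 5.19 in Ly49E+CD8aa+ cells, 5.65, 5.48 and 5.49 in Ly49E+CD8aa- cells and 5.18, 5.09 and 4.82 in Ly49E-CD8aa+ cells. The Ly49E+CD8aa- arrays were again the 3 highest. The difference from Ly49E-CD8aa+ cells was 0.51 (1.42-fold, adjusted p = 0.0402), and that for Ly49E+CD8aa+ minus Ly49E+CD8aa- cells was -0.46 (adjusted p = 0.0745). The call was lost without any 1 array other than Ly49E-CD8aa+ replicate 1 (adjusted p = 0.0581 to 0.148). The 13 other genes of the class differed by -0.35 to 0.14 between Ly49E+CD8aa- and Ly49E-CD8aa+ cells.

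Ptpn6, encoding SHP-1, was lower in Ly49E+CD8aa- relative to Ly49E-CD8aa+ cells. Its values were 10.45, 10.09 and 10.20 in Ly49E+CD8aa+ cells, 10.40, 10.18 and 10.19 in Ly49E+CD8aa- cells and 10.90, 10.64 and 10.89 in Ly49E-CD8aa+ cells. Both Ly49E+ populations lay below the Ly49E- one on every array. The difference was -0.55 for Ly49E+CD8aa- minus Ly49E-CD8aa+ cells (1.47-fold lower, adjusted p = 0.0453) and -0.56 for Ly49E+CD8aa+ minus Ly49E-CD8aa+ cells (95% CI -0.82 to -0.30, adjusted p = 0.306). The second value did not pass the adjustment over all genes. Ly49E+CD8aa+ minus Ly49E+CD8aa- cells gave 0.00 (95% CI -0.27 to 0.26). The call was lost without any 1 of 7 arrays (adjusted p = 0.0515 to 0.168) and was kept without Ly49E+CD8aa+ replicate 1 or Ly49E-CD8aa+ replicate 2.

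Some dendritic cell markers were highest in Ly49E-CD8aa+ cells, as Ptpn6 was. The summed signal of all 12 was 1608 to 1865 in Ly49E+CD8aa+ cells, 1855 to 2157 in Ly49E+CD8aa- cells and 2027 to 2575 in Ly49E-CD8aa+ cells, with 2 of the 12 genes below the 25th percentile on all 9 arrays. Siglech, a plasmacytoid dendritic cell receptor, was read at 5.46 to 5.58 in Ly49E+CD8aa+ cells, 5.57 to 5.69 in Ly49E+CD8aa- cells and 7.26 to 7.84 in Ly49E-CD8aa+ cells. Of the 12 markers, 3 were called lower in Ly49E+CD8aa+ relative to Ly49E-CD8aa+ cells (background 0.11%). In Ly49E+CD8aa- relative to Ly49E-CD8aa+ cells, 4 were called lower (background 0.802%) and 1 higher (background 1.35%). The higher one was Batf3, by 0.83 (limma adjusted p = 0.0448). Itgax was 0.35 higher in the same comparison without passing (adjusted p = 0.447). The part of the dendritic cell markers in the Ptpn6 values was not tested.

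Ptpn11 encodes SHP-2, the other SH2-domain phosphatase, which in many receptor pathways promotes ERK activation. It had 9.48, 9.40 and 9.60 in Ly49E+CD8aa+ cells, 9.08, 9.40 and 9.37 in Ly49E+CD8aa- cells and 9.67, 9.52 and 9.41 in Ly49E-CD8aa+ cells. The difference for Ly49E+CD8aa- minus Ly49E-CD8aa+ cells was -0.25 (95% CI -0.49 to -0.01, adjusted p = 0.457). Of the remaining non-receptor genes, Ptpn2, which restrains JAK and STAT signalling, differed by 0.21 between the same cells (adjusted p = 0.455). Ptpn1, its closest relative, differed by -0.21 (95% CI -0.52 to 0.10). Ptpn12, encoding PTP-PEST, averaged 9.76, 9.69 and 9.67, with differences of every pair inside intervals of -0.23 to 0.33. The 13 non-receptor genes not called in this comparison ranged from -0.48 to 0.21.

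Among the receptor-type phosphatases Ptprc, whose product CD45 was part of the gate, was not called in any comparison. Its values were 11.83, 11.92 and 11.74 in Ly49E+CD8aa+ cells, 11.80, 11.83 and 11.83 in Ly49E+CD8aa- cells and 11.84, 11.90 and 11.81 in Ly49E-CD8aa+ cells. The intervals of the 3 pairwise differences together ran from -0.18 to 0.15, so the data leave room for differences of that size. Ptprcap, encoding the CD45-associated protein, had 10.22, 10.03 and 10.24 in Ly49E+CD8aa+ cells, 9.91, 9.92 and 9.83 in Ly49E+CD8aa- cells and 9.97, 10.02 and 10.05 in Ly49E-CD8aa+ cells. Ly49E+CD8aa+ arrays did not overlap with Ly49E+CD8aa- arrays, but the difference of 0.28 (95% CI 0.11 to 0.44) did not pass (adjusted p = 0.143).

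Ptprj encodes CD148, a receptor-type phosphatase that acts on Src-family kinases, and was higher in Ly49E+CD8aa+ relative to Ly49E+CD8aa- cells. It was read at 9.44, 9.74 and 9.60 in Ly49E+CD8aa+ cells, 9.05, 9.12 and 9.15 in Ly49E+CD8aa- cells and 9.46, 9.59 and 9.43 in Ly49E-CD8aa+ cells. The Ly49E+CD8aa- arrays were the 3 lowest. The difference was 0.48 for Ly49E+CD8aa+ minus Ly49E+CD8aa- cells (95% CI 0.29 to 0.68, 1.4-fold, adjusted p = 0.0268) and -0.39 for Ly49E+CD8aa- minus Ly49E-CD8aa+ cells (adjusted p = 0.0689). A second row of the gene gave 0.58 and -0.61 (adjusted p over all rows = 0.256 and 0.186). With the same adjustment over all rows the row used did not pass either (limma adjusted p = 0.076 and 0.149). The call between the Ly49E+ populations was lost without replicate 2 or 3 of Ly49E+CD8aa+ or any 1 Ly49E+CD8aa- array (adjusted p = 0.0755 to 0.113), and the F call without any 1 array other than Ly49E+CD8aa+ replicate 1 (adjusted p = 0.0727 to 0.211).

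The other 19 receptor-type genes were not called in any comparison. They differed by -0.21 to 0.13 between Ly49E+CD8aa+ and Ly49E+CD8aa- cells. Ptpre, whose cytosolic and receptor forms act on Src-family kinases, was -0.19 for Ly49E+CD8aa- minus Ly49E-CD8aa+ cells (adjusted p = 0.478). Ptprs, a receptor for proteoglycans, had 6.12, 6.19 and 6.13 in Ly49E+CD8aa+ cells, 6.43, 6.21 and 6.44 in Ly49E+CD8aa- cells and 6.60, 6.20 and 5.96 in Ly49E-CD8aa+ cells, a spread in the last population wider than its differences from the others. Ptpro, at -0.23 for Ly49E+CD8aa+ minus Ly49E-CD8aa+ cells, lay below the 25th percentile of genes on every array.

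The kinases that these phosphatases oppose were called at shares to be read beside the 0.13%, 1.7% and 2.15% of all genes called in the 3 comparisons. Of 16 measured MAP kinases and their upstream kinases limma called 0 in each comparison, with 1, 1 and 3 at an unadjusted p under 0.05 for Ly49E+CD8aa+ minus Ly49E-CD8aa+, Ly49E+CD8aa+ minus Ly49E+CD8aa- and Ly49E+CD8aa- minus Ly49E-CD8aa+ cells. Of 9 JAK and STAT genes limma also called 0 in each, with 1, 1 and 0 at an unadjusted p under 0.05. Among 18 tyrosine kinases and adaptors of immunoreceptors the 1 call was Lat, an adaptor of the T cell receptor, which was 0.60 higher in Ly49E+CD8aa- relative to Ly49E-CD8aa+ cells (SE 0.0965, adjusted p = 0.013). Unadjusted p-values under 0.05 numbered 2, 5 and 8 in this list. The unadjusted counts of these 3 lists are to be read beside 4.18%, 9.43% and 10.4% of all genes, in the same order of comparisons.

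Among 23 other phosphatases of the wider tyrosine phosphatase family, Ssh2, a cofilin phosphatase, and Eya2, a transcriptional cofactor with tyrosine phosphatase activity, were called. Both passed for Ly49E+CD8aa- minus Ly49E-CD8aa+ cells (background 2.15% of all genes). Ssh2 alone passed for Ly49E+CD8aa+ minus Ly49E+CD8aa- cells (background 1.7%). Ssh2 had 7.90, 8.30 and 8.39 in Ly49E+CD8aa+ cells, 8.82, 8.84 and 8.89 in Ly49E+CD8aa- cells and 8.04, 8.19 and 8.24 in Ly49E-CD8aa+ cells. It differed by -0.66 for Ly49E+CD8aa+ minus Ly49E+CD8aa- cells (adjusted p = 0.0276) and by 0.69 for Ly49E+CD8aa- minus Ly49E-CD8aa+ cells (adjusted p = 0.0181). Its Ly49E+CD8aa- arrays were above all others. Eya2 was 1.14 higher in Ly49E+CD8aa- relative to Ly49E-CD8aa+ cells (adjusted p = 0.00907). Its difference of -0.58 for Ly49E+CD8aa+ minus Ly49E+CD8aa- cells did not pass (limma adjusted p = 0.224).

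**Figure D4:**
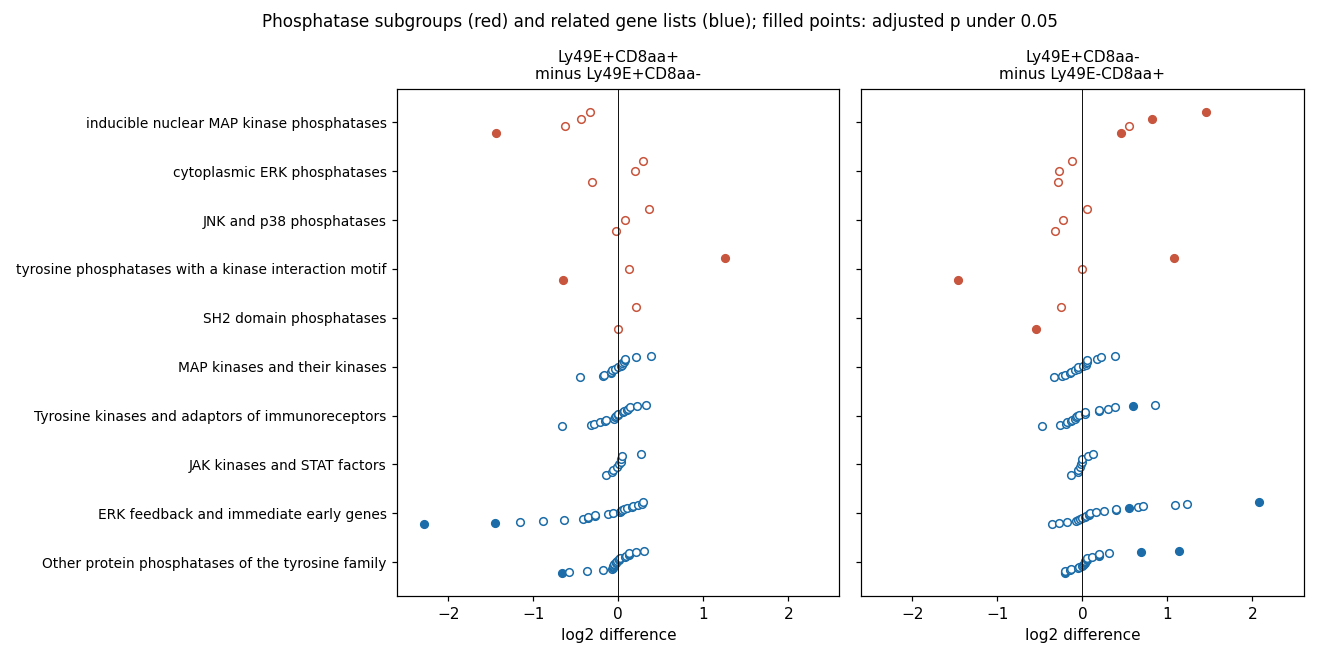
Log2 differences (x axis) of single genes (points) in subgroups of the phosphatases (red) and in the pathway lists (blue), for Ly49E+CD8aa+ minus Ly49E+CD8aa- and Ly49E+CD8aa- minus Ly49E-CD8aa+ cells. The 4 nuclear MAP kinase phosphatases lie to the right of 0 (0.45 to 1.45) in the second comparison, while MAP kinases and JAK and STAT genes hold 0 calls.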

How the data were processed

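RNA of 9 samples, 3 sorted populations with 3 biological replicates each, was amplified with the Ovation Pico WTA V2 kit and hybridised to 1-colour arrays, per the labels' protocols. The deposited values are log2 expression values, made by the authors with RMA per the submitters' processing notes. The RMA version, genome build and annotation were not given in the sources used. Of 35556 rows, 23410 were in the platform annotation, 21789 with a single symbol and 1621 with more; 12146 were unlisted. For the 999 genes with several rows (5 of the 61 members) the row of highest mean value was used. All 61 members were matched to RefSeq by gene ID. 1 gene with a Ptpn symbol is not reported here.

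Populations were compared in limma 3.58.1 (R 4.3.3) with a mean for each population over all 9 arrays and empirical Bayes variances (prior df 3.08, residual df 6). Tests were 2-sided, and p-values were adjusted over 19938 genes. The fit was tested on simulated data. Array medians were 5.76 to 5.82, no arrays were identical, and the median SE of a difference was 0.0976; the number of arrays limits the precision. Scan dates were not used here. Named genes were those called, the 4 with the largest differences in each comparison, the 5 with the highest mean, and a set of named lymphocyte phosphatases, 22 in all; members and lists were chosen with earlier results of these data known. Alternatives were filters on low values, normalization, variance models, array weights, the replicate block, other row choices, only the 6 arrays compared, and leaving out each array.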

Additional observations from a re-analysis of the deposited data

How the results depend on the processing

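Of the 16 calls of named genes, 9 passed under every alternative in which they were tested (Ptpn5, Ptpn7 and Dusp4, each in 2 pairwise comparisons and the F test; Dusp4 was not tested among genes above the median), and 7 were lost under at least 1. None reversed. The count for Ly49E+CD8aa- minus Ly49E-CD8aa+ cells was 7, and 3 with all rows tested or with only the 6 arrays compared. The F count was 5, and 8 after quantile normalization again or with array weights, and 3 with all rows tested. Leaving out 1 array gave 0 to 1 genes for Ly49E+CD8aa+ minus Ly49E-CD8aa+, 3 to 5 for Ly49E+CD8aa+ minus Ly49E+CD8aa-, 3 to 5 for Ly49E+CD8aa- minus Ly49E-CD8aa+ and 3 to 5 for the F test. Correlations of deviations from the population means were -0.0627 to 0.222 for 9 same-numbered pairs of arrays (4 over 0.1, of which 3 were the pairs of replicate 1) and -0.169 to 0.103 for 18 differently numbered pairs (1 over 0.1), so the numbers were not taken as a pairing although replicate 1 arrays deviated together. With the replicate number as a block the counts were 0, 4, 7 and 7. Under the block Dusp2 passed for Ly49E+CD8aa- minus Ly49E-CD8aa+ cells (adjusted p = 0.0185) and Dusp3 did not (0.0673). Ptprj passed in that comparison as the mean of its rows (-0.50, adjusted p = 0.0322). Of 72 results not called, 12 were called under at least 1 alternative. Over all genes, 26 were called for Ly49E+CD8aa+ minus Ly49E-CD8aa+ cells, and 15 above the median, 17 with the block, 9 with all rows, 0 with only the 6 arrays and 5 to 32 without 1 array. All rows gave 220 against 339, 262 against 429 and 241 against 405 for the other pairs and the F test, and the 6 arrays 263 against 429. Leaving out 1 array gave 290 to 372 against 429 and 248 to 332 against 405. The cause was not tested. With 3 arrays a population, differences near the median SE of 0.0976 could not be told from 0. Much larger ones also did not pass. For Dusp7, -0.61 for Ly49E+CD8aa+ minus Ly49E-CD8aa+ cells (SE 0.0996) had a limma adjusted p of 0.0981.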

Other observations

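Exact ties were frequent in the deposited log2 values. An identical value on at least 2 of the 9 arrays was present for 12062 of 19938 genes (60.5%) and for 31 of the 61 phosphatase genes. All 3 arrays of a population held the same value for 2.08% of genes in Ly49E+CD8aa+, 2.39% in Ly49E+CD8aa- and 2.02% in Ly49E-CD8aa+ cells. Among the phosphatases these were Ptprh in Ly49E+CD8aa+ cells, Ptpra and Dusp27 in Ly49E+CD8aa- cells, and Ptprm, Ptprr, Dusp9 and Dusp27 in Ly49E-CD8aa+ cells. A population SD of 0 in these genes therefore comes from equal deposited values. The widest spreads within a population were 0.363 for Dusp18 in Ly49E+CD8aa+ cells and, for Ptprh, 0.304 in Ly49E+CD8aa- and 0.382 in Ly49E-CD8aa+ cells.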
